A study of Mus musculus with 4 samples.

Results

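TAM_Spp1 is the name that the study gave to a class of tumour-associated macrophages, and it is described here from the deposited counts and cell labels. The members were all cells with the label TAM_Spp1 in the cell table, 4626 of 34447 cells in 17 classes. The study isolated live CD45+ cells from subcutaneous melanomas of the mouse line YUMM1.7 OVA RTT, which has Braf V600E, lacks Cdkn2a, carries the model antigen ovalbumin and no longer responds to targeted therapy. The tumours grew in Rag2-/- mice, which have no T or B cells of their own, and OT-1 CD8+ T cells, which recognise ovalbumin, were transferred on day 7 (adoptive cell transfer, ACT). Tumours were collected on day 10, 72 h after ACT, and 3 tumours were pooled into 1 library per group. Fixed cells were profiled with gene-specific probes (10x Flex), and each transcript was counted once as a unique molecular identifier (UMI).

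CTRL tumours came from cancer cells with the empty mCherry vector. IRF3/7 tumours came from cancer cells with forced expression of Irf3 and Irf7, transcription factors of the interferon response, in a bulk-sorted line. COX2i tumours came from the mCherry line in mice given celecoxib by daily gavage, which inhibits cyclooxygenase 2, an enzyme of prostaglandin synthesis. COX2i + 5-AZA tumours came from the mCherry line in mice given celecoxib and intraperitoneal 5-azacytidine, an inhibitor of DNA methyltransferases. All groups received ACT, so no library shows the class without transferred T cells.

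Macrophages named for Spp1 (osteopontin) are found in hypoxic and matrix-rich parts of many tumours and are usually described as angiogenic and immunosuppressive. Their markers include secreted factors that act on vessels, matrix and neutrophils. Macrophages exposed to interferon-gamma follow a contrasting program, with the T cell-attracting chemokines Cxcl9 and Cxcl10, guanylate-binding proteins, antigen presentation and the nitric oxide synthase Nos2.

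With 1 library per group there was no replicate, so no test of a group difference was possible and no p-value is given. All values are UMIs summed over the TAM_Spp1 cells of a library, as counts per 1000000 UMIs of their sum (CPM), and intervals are exact 95% intervals that cover counting error only. Differences between libraries may come from the treatment or from the pooled tumours, and these cannot be told apart. TAM_Spp1 cells of CTRL, COX2i and COX2i + 5-AZA held 10336393, 6831649 and 5033563 UMIs, with medians of 4047, 4423.5 and 5417 UMIs per cell. TAM_C1q, the macrophage class named for complement C1q, had higher medians of 6857, 7368 and 9345. Of the 4626 TAM_Spp1 cells, 1327 (28.7%) carried a bead barcode that also occurred in another library, where the libraries were told apart by their probe barcode.

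The class made up a smaller share of cells in every treated or modified library than in CTRL. It held 2347 of 8953 cells in CTRL (26.2%, 25.3 to 27.1), 1412 of 9133 in COX2i (15.5%, 14.7 to 16.2), 857 of 10032 in COX2i + 5-AZA (8.54%, 8.0 to 9.1) and 10 of 6329 in IRF3/7 (0.158%, 0.0758 to 0.290). The COX2i share was 0.590-fold that of CTRL, the COX2i + 5-AZA share 0.326-fold and the IRF3/7 share 0.00603-fold. Measured against the 6 macrophage classes instead of all cells, TAM_Spp1 was 31.4% in CTRL, 20.7% in COX2i, 20.8% in COX2i + 5-AZA and 2.28% in IRF3/7. COX2i and COX2i + 5-AZA then differed by a log2 ratio of 0.01 (-0.12 to 0.13), whereas over all cells the log2 ratio was -0.86 (-0.98 to -0.73). Macrophages numbered 6820 in COX2i and 4117 in COX2i + 5-AZA, and the class Monocyte_1 numbered 394 and 3640. With 10 cells, IRF3/7 is left out of the comparisons of genes within the class.

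**Figure D1:**
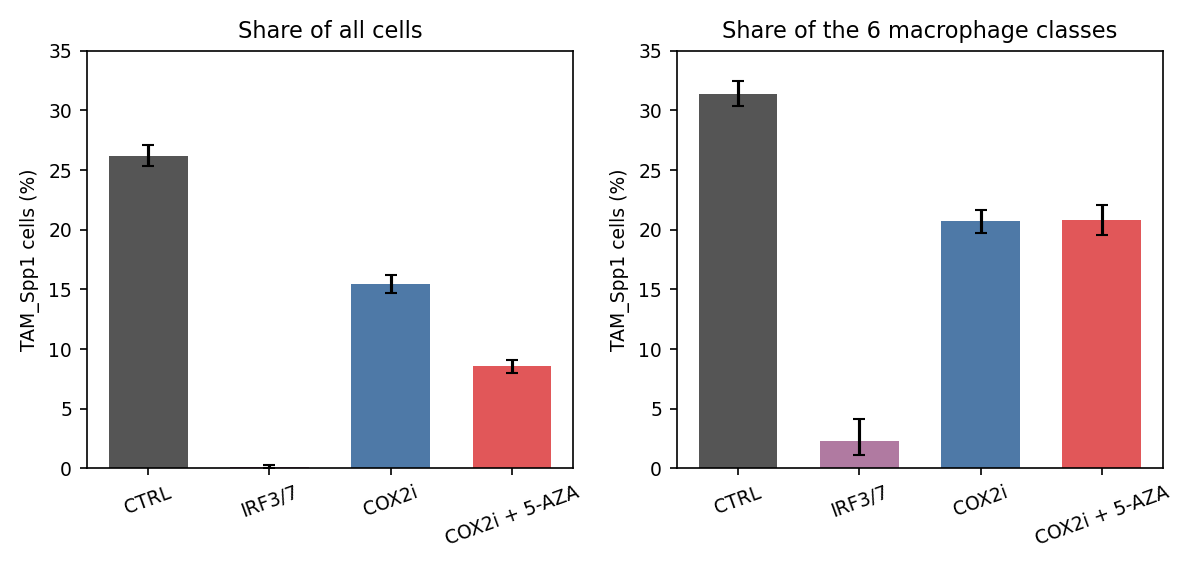
TAM_Spp1 cells as a percentage of all cells (left) and of the 6 macrophage classes (right) in each library, with exact 95% binomial intervals. Of all cells the bars step down from 26.2% in CTRL to 15.5% in COX2i and 8.54% in COX2i + 5-AZA, while of macrophages the last 2 stand at 20.7% and 20.8%.

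The label was checked against the 7 markers of the class, of which Vegfa, Thbs1, Cxcl3, Cxcl2, Spp1 and Rgcc are described here. Since the cells were clustered on these genes, the check is a description. Classes of at least 50 cells were ranked, 9 in CTRL, 10 in COX2i and 14 in COX2i + 5-AZA. TAM_Spp1 ranked first for 4, 6 and 4 of the 7 markers in these libraries, and within the first 3 for all 7 in each. The class Neutro had 5 cells in COX2i and was not ranked there. In CTRL and COX2i + 5-AZA, Neutro ranked above TAM_Spp1 for Cxcl2 and Cxcl3. Of the 20 leading genes that the study lists for the class, which the study chose with these cells among its own, 18 were higher in TAM_Spp1 than in TAM_C1q in all 3 libraries and 9 of these by 2-fold or more. All 20 leading genes of TAM_C1q were lower in TAM_Spp1, 15 of them by 2-fold or more. Spp1 itself, a matrix protein and cytokine, was the exception among the 7. It was at 12066, 7668 and 4549 CPM in TAM_Spp1 and at 6826, 8387 and 2989 in TAM_C1q of CTRL, COX2i and COX2i + 5-AZA, so that TAM_Spp1 was the lower of the pair in COX2i. The class Myofibrobl held more Spp1 than TAM_Spp1 in COX2i, at 8918 CPM, and in COX2i + 5-AZA, at 4869.

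**Figure D2:**
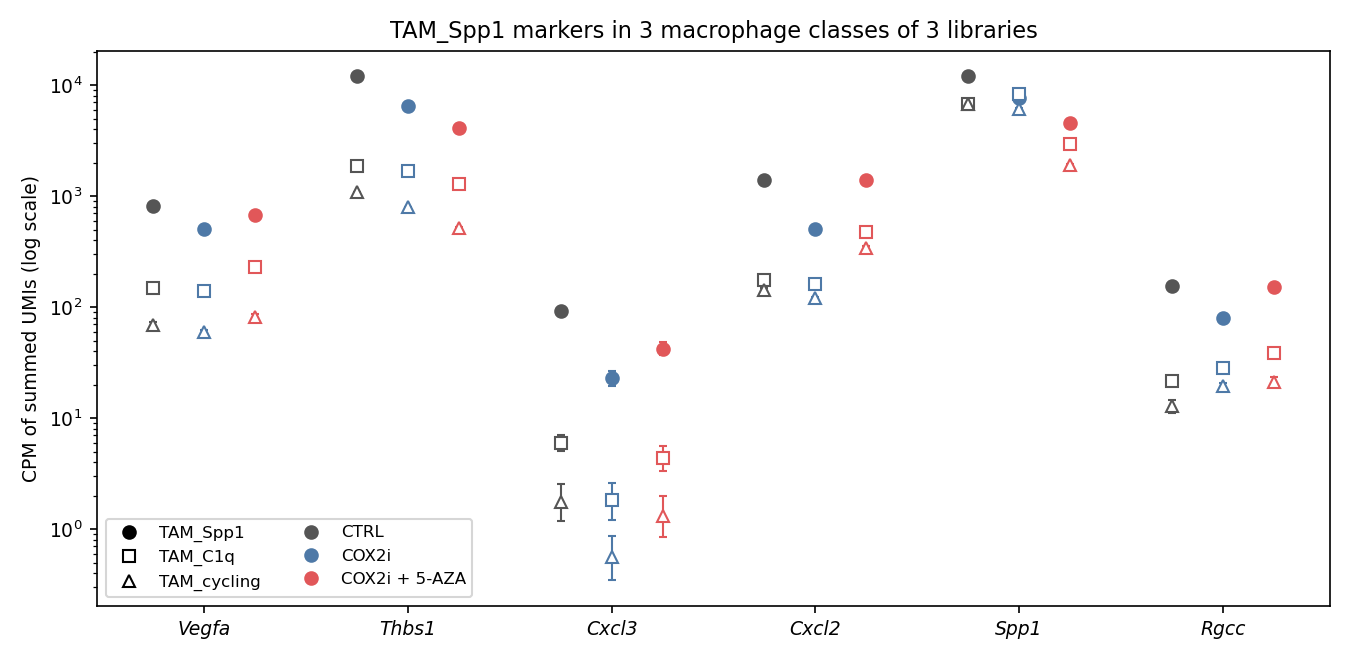
CPM of 6 markers (log scale) in TAM_Spp1 (circles), TAM_C1q (squares) and TAM_cycling, the proliferating macrophage class (triangles), in 3 libraries, with exact 95% Poisson intervals. TAM_Spp1 lies above the other classes for each marker and library except Spp1 in COX2i, where it was at 7668 against 8387 CPM in TAM_C1q.

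General macrophage genes were present throughout. Lyz2 (lysozyme) was at 7236, 5976 and 5819 CPM in CTRL, COX2i and COX2i + 5-AZA, and Csf1r (the receptor for the macrophage growth factor Csf1) at 1059, 1081 and 971. Adgre1 was at 253, 299 and 152 CPM and Mertk at 158, 67.6 and 73.1. Among classes of at least 50 cells, TAM_Spp1 ranked 6 of 9, 3 of 10 and 7 of 14 for Adgre1. For Cd68 it ranked 7, 6 and 7, and for Itgam 1 in each library. Ccr2, a monocyte receptor and a leading gene of the class, was at 1141, 1177 and 768 CPM, with rank 1 in each. Genes of other cells were also measured in the class. The 15 NK and T cell genes summed to 11.2, 14.3 and 30.8 CPM, and Cd3d, Cd3e, Trac, Cd8a and Cd8b1 were at 0 in all 3 libraries, where a count of 0, taken to allow up to 3 UMIs, allows up to 0.290, 0.439 and 0.596 CPM. The 9 neutrophil genes summed to 268, 96.8 and 546 CPM and had a UMI in 49.9%, 26.6% and 67.0% of the cells. The 11 fibroblast and endothelial genes summed to 246, 318 and 161 CPM. In TAM_C1q the neutrophil sums were 151, 40.4 and 135 CPM, in the same order of libraries. The sums for the remaining lists were those of melanoma genes (134, 108 and 80.5 CPM), dendritic cell genes (83.3, 104 and 80.7), mast cell genes (22.3, 9.22 and 16.5), B cell genes (7.45, 6.29 and 4.97) and red cell genes (1.35, 5.56 and 0).

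Genes that set TAM_Spp1 apart from TAM_C1q were sought by the lowest log2 ratio over the 3 libraries. Of 4207 genes, 133 (3.16%) were 2-fold or more higher in TAM_Spp1 in all 3 and 122 (2.9%) were 2-fold or more lower, with no test, because the classes came from clustering these cells. Cd24a, a small lipid-anchored surface glycoprotein, led the higher genes with log2 ratios of 4.20, 4.17 and 4.57. It was at 159, 135 and 253 CPM in TAM_Spp1 and at 8.66, 7.53 and 10.7 in TAM_C1q. The next were P2ry10, F10 (coagulation factor X), Slpi (a protease inhibitor of neutrophils and macrophages), Il1r2 (the decoy receptor for IL-1), Mcemp1, Chil3, Ramp3, Sdc1 (syndecan 1), Klrb1b, Ass1, Napsa, H2-Eb1, Vcan (versican) and H2-Aa. At the other end Gas6, a ligand of the TAM receptor tyrosine kinases in the uptake of dying cells, was at 16.9, 15.1 and 13.1 CPM against 576, 452 and 432 in TAM_C1q, with log2 ratios of -5.09, -4.91 and -5.04. The others of the 10 lowest were Npl, Cbr2, Slco2b1, Folr2 (folate receptor beta), Pmp22, Fcrls, Ch25h (cholesterol 25-hydroxylase), Ctla2a and Hpgds (a prostaglandin D2 synthase), of which Npl, Cbr2 and Slco2b1 ranked before Gas6. Several of these, such as Folr2, Cbr2, Fcrls and Gas6, are known as genes of resident macrophages. Of the higher genes, Cd24a is among the markers that the study uses for conventional dendritic cells, which were not part of this comparison.

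Within the class, fewer genes were past 2-fold in COX2i than in COX2i + 5-AZA when each was set against CTRL. Among 10652 genes with at least 20 UMIs in the 2 libraries together, 165 (1.55%) were 2-fold or more higher in COX2i than in CTRL and 338 (3.17%) were 2-fold or more lower. Intervals lay above 0 for 20.2% of the genes and below 0 for 17.2%. For COX2i + 5-AZA over CTRL, 303 of 10523 genes (2.88%) were 2-fold or more higher and 780 (7.41%) lower, with intervals above 0 for 16.8% and below 0 for 26.9%. For COX2i + 5-AZA over COX2i, 318 of 10203 (3.12%) were higher and 585 (5.73%) lower, with intervals above 0 for 14.5% and below 0 for 27.8%. With at least 100 UMIs this balance turned, to 187 higher and 147 lower, and with at least 1 UMI that of COX2i over CTRL turned, to 588 higher and 545 lower. The medians of all these genes were 0.01, -0.10 and -0.11 on the log2 scale. The 3 comparisons share libraries, so they are not independent of each other.

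The 6 markers described were all lower in COX2i than in CTRL, Cxcl2 and Cxcl3 by 2-fold or more. Cxcl2 and Cxcl3, ligands of the neutrophil receptor CXCR2, had the largest differences. Cxcl2 was at 1410, 504 and 1403 CPM in CTRL, COX2i and COX2i + 5-AZA, with a log2 ratio of -1.48 for COX2i and of -0.01 (-0.05 to 0.03) for the combination over CTRL. Cxcl3 was at 93.1, 23 and 42.5 CPM. Rgcc, a regulator of the cell cycle that responds to complement, was at 154, 80.4 and 153 CPM, and Vegfa, the vascular growth factor, at 826, 507 and 676. These 4 markers thus had their lowest level in COX2i. The neutrophil genes were also lowest there (268, 96.8 and 546 CPM), and Neutro cells held Cxcl2 at 4182 CPM in CTRL and 7009 in COX2i + 5-AZA and Cxcl3 at 243 and 56.9. Without cells that carried a UMI of the neutrophil or NK and T cell lists, the log2 ratio of COX2i over CTRL was -1.31 for Cxcl2 and -2.34 for Cxcl3.

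Spp1 and Thbs1 followed another order, with the lowest level in COX2i + 5-AZA. Thbs1 (thrombospondin 1, a matrix glycoprotein that restrains vessel growth) was at 12065, 6441 and 4150 CPM, with log2 ratios over CTRL of -0.91 (-0.92 to -0.89) and -1.54 (-1.56 to -1.52). Spp1 was at 12066, 7668 and 4549 CPM, with ratios of -0.65 and -1.41. Fn1 (fibronectin) was level between CTRL and COX2i, at 11501 and 11640 CPM, and at 5235 in COX2i + 5-AZA. S100a4, a calcium-binding protein of motile cells, was also lowest in COX2i + 5-AZA, at 3933, 3700 and 1976 CPM. Tgfbi, Cd14, Itgam and Cebpb, also among the leading genes of the class, differed little. Tgfbi, a matrix protein induced by TGF-beta, was at 7432, 8082 and 8187 CPM, and Cebpb, a myeloid transcription factor, at 2890, 2486 and 2925. Over the study's 20 leading genes the median log2 ratio was -0.24 for COX2i over CTRL and -0.36 for COX2i + 5-AZA over CTRL. For COX2i + 5-AZA over COX2i it was 0.02. By 2-fold or more 2, 3 and 1 of the 20 were lower, beside 3.17%, 7.41% and 5.73% of all genes, and none was higher.

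**Figure D3:**
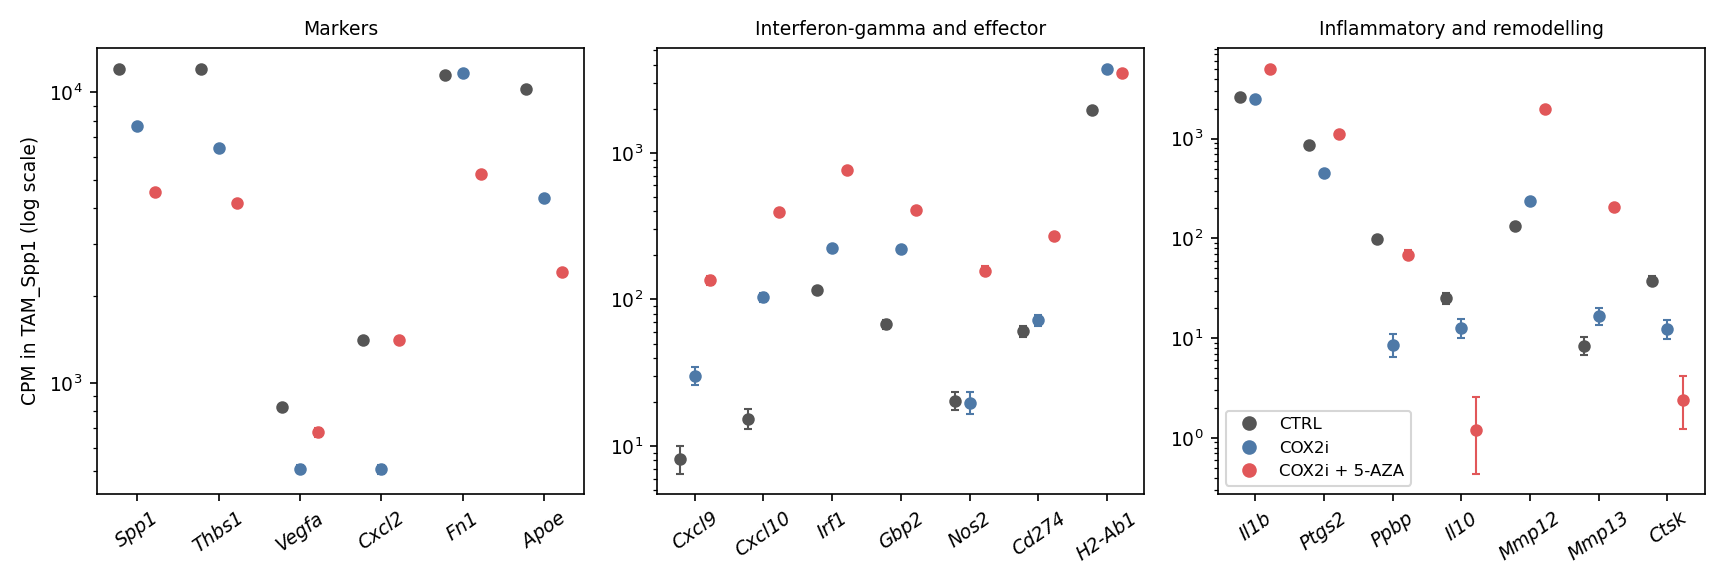
CPM within TAM_Spp1 (log scale) of 20 genes in CTRL, COX2i and COX2i + 5-AZA, with exact 95% Poisson intervals, in 3 panels for markers, interferon-gamma and effector genes, and inflammatory and remodelling genes. Vegfa and Cxcl2 are lowest in COX2i, Spp1, Thbs1 and Apoe step down across the 3 libraries, and Cxcl9, Cxcl10, Irf1, Gbp2 and Mmp12 step up.

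Within cells, the markers were partly shared. After each cell was thinned to 2000 UMIs, which left out 97, 48 and 33 shallower cells, Thbs1 was detected in 94.3%, 78.0% and 74.2% of TAM_Spp1 cells of CTRL, COX2i and COX2i + 5-AZA (96.5%, 84.3% and 81.7% before thinning). In NK_cells it was detected in 9.68% of 31 thinned cells of COX2i and in 14.1% of 291 of COX2i + 5-AZA, where the median depths before thinning were 2606 UMIs for NK_cells and 5417 for TAM_Spp1. Spp1 was detected in 87.6%, 89.8% and 78.3% (93.5%, 95.7% and 86.9% before thinning), and also in 51.6% and 48.5% of the NK_cells, which should lack it. Across thinned cells Spearman's rho of Spp1 and Fn1 was 0.50, 0.49 and 0.42, and that of Spp1 and Thbs1 was -0.05, 0.10 and 0.01, in 2250, 1364 and 824 cells that share a library and a depth. Spp1 thus went with Fn1 from cell to cell more than with Thbs1, another leading gene of the class.

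Many genes that respond to interferon-gamma were higher in COX2i than in CTRL, and higher again in COX2i + 5-AZA. Of 17 such genes described in COX2i over CTRL, 12 were 2-fold or more higher and none lower, beside 1.55% and 3.17% of all genes. Their median log2 ratio was 1.14 beside 0.01 for all genes. All 18 described in COX2i + 5-AZA over CTRL were 2-fold or more higher, beside 2.88% of all genes. Their median was 2.65 beside -0.10. In COX2i + 5-AZA over COX2i 11 of 19 were 2-fold or more higher, beside 3.12%, with a median of 1.17 beside -0.11. Cxcl10 was at 15.3 CPM (13 to 17.9) in CTRL, 103 (96.0 to 111) in COX2i and 393 (376 to 411) in COX2i + 5-AZA. Cxcl9, whose product shares the receptor CXCR3 on T cells, was at 8.13, 30.2 and 135 CPM. The levels stepped up from library to library for both chemokines. For Cxcl9, TAM_Spp1 ranked 7 of 9, 7 of 10 and 12 of 14 classes, Monocyte_1 held 1989 CPM in COX2i and 1091 in COX2i + 5-AZA, and Monocyte_1 cells numbered 44, 394 and 3640 in the 3 libraries. Their part in these values was not tested.

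The guanylate-binding proteins, which act against intracellular microbes, were also lowest in CTRL. Gbp2 was at 67.5, 221 and 407 CPM, Gbp3 at 24.9, 72.0 and 77.7, and Gbp4 at 10.6, 29.1 and 80.9. Irf1, the transcription factor that relays interferon-gamma signals and a gene chosen after its values were seen, was at 115, 223 and 761 CPM. Socs1, a feedback inhibitor of the pathway, was at 16.2, 29.1 and 182 CPM, and Cd274 (PD-L1, the ligand of the T cell checkpoint PD-1) at 60.5, 72.2 and 269. For these last genes most of the difference lay between COX2i and COX2i + 5-AZA, with log2 ratios of 2.65 (2.42 to 2.87) for Socs1 and 1.90 (1.75 to 2.05) for Cd274. The Cxcl10 log2 ratio of COX2i over CTRL was 2.76 in all cells and 0.65 without cells with a UMI of the G2/M phase list, an alternative chosen after the data were seen. That of Gbp2 was 1.71 in all cells and 0.69 without possible doublets, taken as cells above 2 times the median UMI count or with 2 or more UMIs of the lists of other cells, a setting that kept 650, 402 and 165 cells of CTRL, COX2i and COX2i + 5-AZA.

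Few cells carried the chemokines. Thinned to 2000 UMIs, Cxcl10 was detected in 1.16%, 4.18% and 15.9% of TAM_Spp1 cells (1.79%, 6.52% and 23.6% before thinning) and Cxcl9 in 0.533%, 2.57% and 10.4% (1.02%, 5.31% and 18.3% before thinning). In the 291 NK_cells of COX2i + 5-AZA the thinned shares were 12.0% for Cxcl10 and 7.22% for Cxcl9, near those of TAM_Spp1, so these shares are not read as expressing cells. The counts per cell were uneven, with at most 29 UMIs of Cxcl10 in 1 thinned cell of COX2i and 0 in the median cell. Cd274 was detected in 10.2%, 10.6% and 35.2% (16.9%, 21.0% and 59.6% before thinning), against 27.8% of the NK_cells of COX2i + 5-AZA, which can themselves express it.

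Genes more typical of type I interferon differed less. Of 17 described, none was 2-fold or more higher in COX2i over CTRL and 3 in COX2i + 5-AZA over CTRL. The shares of all genes were 1.55% and 2.88%, and the medians of the list were 0.28 and 0.24. Isg15, a ubiquitin-like protein, was at 76.4, 100 and 166 CPM, Irf7 at 69.4, 83.0 and 129, and Rsad2 (viperin) at 28.1, 15.5 and 31.6. The highest levels of Isg15 and Irf7 were again in COX2i + 5-AZA, whereas Rsad2 was lowest in COX2i. In TAM_cycling the same list had a median of 2.20 for COX2i + 5-AZA over CTRL, and the difference between the classes was not tested.

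**Figure D4:**
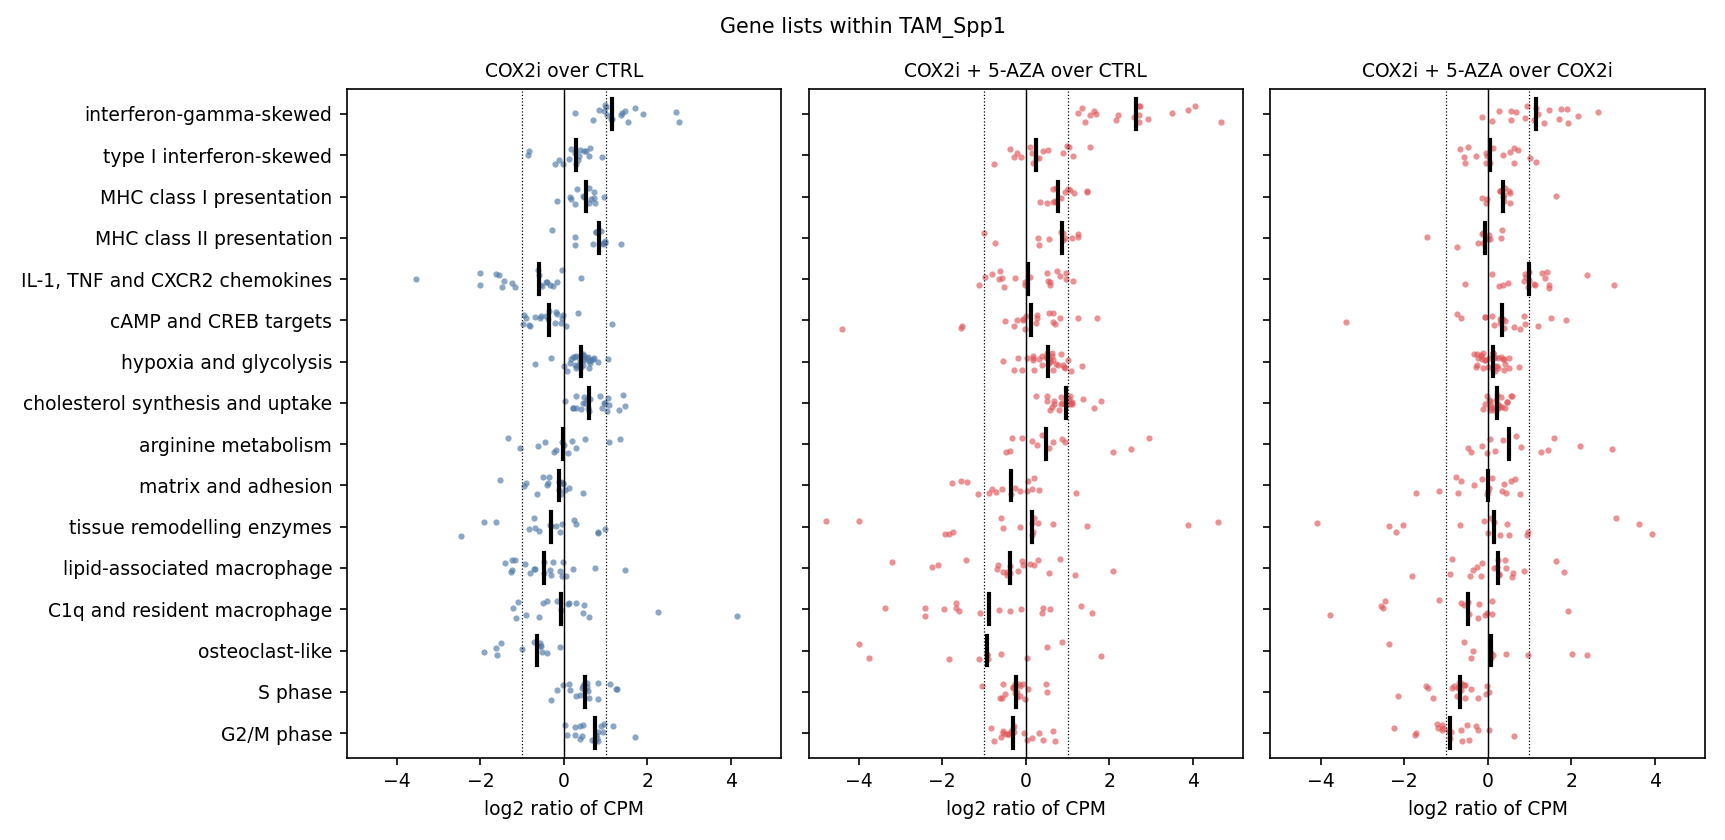
Log2 ratios of CPM within TAM_Spp1 for the genes of 16 lists in 3 comparisons, where each point is a gene with at least 20 UMIs, the bars are medians and the dotted lines mark 2-fold. Interferon-gamma genes lie to the right in each panel (medians of 1.14, 2.65 and 1.17), and the IL-1, TNF and CXCR2 list moves from -0.60 in COX2i over CTRL to 1.00 in COX2i + 5-AZA over COX2i.

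Promoters of 4 genes are shown so that the letters of known binding motifs can be seen beside the levels, for genes that stepped up (Cxcl10 and Irf1), that were lowest in COX2i (Cxcl3) and that stepped down (Spp1). The windows hold the 250 bases before the RefSeq start of each gene (GRCm38.p6, given 5′ to 3′ on the strand of the gene), and capitals mark the letters of a motif match. The Cxcl10 window (chr5:92348890-92349139, minus strand) holds an ISRE core, the interferon-stimulated element, and a kappaB match, and the Irf1 window (chr11:53769764-53770013, plus strand) holds a GAS, the interferon-gamma-activated site. The Cxcl3 window (chr5:90785851-90786100, plus strand) holds 2 overlapping kappaB matches, at positions -73 to -64 and -72 to -63. The Spp1 window (chr5:104434861-104435110, plus strand) holds an ISRE core match although the gene was lower in both treated libraries. Each window ends at or within a few bases of the gene start in the annotation of the authors' genome build, outside the transcribed gene. The windows of Cxcl9 and Mmp12, genes that also stepped up, are not shown and held none of the motifs searched.
Cxcl10: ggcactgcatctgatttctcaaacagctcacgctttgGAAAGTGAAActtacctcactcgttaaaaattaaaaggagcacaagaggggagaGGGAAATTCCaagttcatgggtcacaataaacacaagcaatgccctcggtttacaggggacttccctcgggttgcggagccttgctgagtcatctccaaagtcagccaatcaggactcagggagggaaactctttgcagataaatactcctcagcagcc
Irf1: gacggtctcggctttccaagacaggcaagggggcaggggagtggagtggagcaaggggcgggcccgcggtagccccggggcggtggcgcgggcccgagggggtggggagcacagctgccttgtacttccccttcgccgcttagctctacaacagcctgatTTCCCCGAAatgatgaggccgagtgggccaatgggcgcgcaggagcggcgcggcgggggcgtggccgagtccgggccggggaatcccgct
Cxcl3: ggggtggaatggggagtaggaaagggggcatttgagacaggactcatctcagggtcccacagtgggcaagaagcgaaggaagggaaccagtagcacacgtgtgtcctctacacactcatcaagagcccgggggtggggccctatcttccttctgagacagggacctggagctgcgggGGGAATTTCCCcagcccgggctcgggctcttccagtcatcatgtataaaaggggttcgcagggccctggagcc
Spp1: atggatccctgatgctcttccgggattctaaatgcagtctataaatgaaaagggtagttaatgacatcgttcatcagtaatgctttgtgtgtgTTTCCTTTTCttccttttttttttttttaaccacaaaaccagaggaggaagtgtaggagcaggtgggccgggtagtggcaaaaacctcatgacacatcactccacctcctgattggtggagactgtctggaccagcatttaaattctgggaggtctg

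The motifs searched, on both strands, were GAS (TTCNNNGAA), ISRE core (GAAA, then any 2 bases, then GAAA), kappaB (GGGA, then any 2 bases, then TTCC) and the cAMP-responsive CRE core (TGACGTCA). In the interferon-gamma list 11 of 15 genes with a window held the ISRE core letters and 7 of 15 the GAS letters, beside 3.04% and 7.18% of all 27025 genes with a window. In the type I interferon list 7 of 14 held the ISRE core and 2 of 14 the GAS. In the list of IL-1, TNF and CXCR2 chemokines 5 of 17 held kappaB letters, beside 1.17% of all genes, and none held the ISRE core. The letters were not particular to lists that were higher, since the ISRE core was in 4 of 16 of the study's leading genes of TAM_Spp1 and in 3 of 13 of the matrix and adhesion list. CRE core letters were in 2 of 15 genes of the cAMP list, beside 1.62% of all genes. Among the 9982 genes of the count table with a window, the shares were 6.04% for GAS, 2.80% for the ISRE core, 1.25% for kappaB and 2.65% for the CRE core. A match is a description of letters and was not tested as a binding site.

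Most antigen presentation genes were above their CTRL level in both treated libraries, few of them by 2-fold. Of 12 MHC class II genes, 11 were above 0 on the log2 scale in COX2i over CTRL, 1 of them past 2-fold. In COX2i + 5-AZA over CTRL 10 were above 0, with 3 past 2-fold higher and 1 lower. Of 14 MHC class I genes, 13 and 14 were above 0 in these comparisons, with 0 and 5 past 2-fold. Of all genes, 1.55% and 2.88% were 2-fold or more higher and 3.17% and 7.41% lower, with medians of 0.01 and -0.10. Cd74, the invariant chain of MHC class II, was at 5833, 11503 and 11161 CPM in CTRL, COX2i and COX2i + 5-AZA. H2-Ab1 was at 1954, 3740 and 3493 CPM, and Ciita, the transactivator of MHC class II genes, at 36, 92.7 and 85.0. The class II list of 12 genes had medians of 0.83 and 0.86 for COX2i and COX2i + 5-AZA over CTRL, and of -0.07 between the treated libraries. MHC class I genes took another course, with medians of 0.54 and 0.78 over CTRL and 0.37 between the treated libraries. Tap1, the peptide transporter, was at 77.9, 152 and 216 CPM and H2-Q7 at 46.1, 41.1 and 127. H2-Q7 has near-identical relatives in its family, so its counts are uncertain.

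Many inflammatory cytokines and CXCR2 chemokines were lowest in COX2i. Of 20 genes described, 9 were 2-fold or more lower in COX2i than in CTRL and none higher, and 19 had an interval below 0, beside 3.17% and 17.2% of all genes. Their median was -0.60 beside 0.01 for all genes. In COX2i + 5-AZA over COX2i, 10 of 20 were 2-fold or more higher and none lower, beside 3.12% and 5.73% of all genes. In COX2i + 5-AZA over CTRL 1 was higher and 1 lower by 2-fold, beside 2.88% and 7.41%. Ppbp (CXCL7, a platelet and macrophage chemokine) was at 98.8, 8.49 and 68.9 CPM, a log2 ratio of -3.54 (-3.95 to -3.16) for COX2i over CTRL. Without possible doublets its ratio of COX2i + 5-AZA over COX2i was 0.90 and not 3.02. Cxcl1 was at 71.0, 17.7 and 46.3 CPM and Tnf at 67.3, 22.8 and 43.3, so both stayed under CTRL in the combination. Neutrophil genes within the class were also lowest in COX2i, at 268, 96.8 and 546 CPM, and Neutro cells numbered 65, 5 and 196. The median of the list in COX2i over CTRL was -0.51 without cells that carried a UMI of the neutrophil or NK and T cell lists.

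The IL-1 genes did not share the COX2i minimum to the same degree. Il1b was at 2598, 2520 and 5048 CPM (7080 in Neutro cells of CTRL and 13885 in those of COX2i + 5-AZA), its antagonist Il1rn at 429, 384 and 834, and the decoy receptor Il1r2 at 433, 341 and 944. For these 3 genes the main step lay between COX2i and COX2i + 5-AZA, with log2 ratios of 1.00, 1.12 and 1.47. Il1b was detected in 65.3%, 69.6% and 85.6% of thinned cells (75.1%, 78.5% and 91.7% before thinning), against 16.1% and 28.5% of the NK_cells of COX2i and COX2i + 5-AZA.

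Genes of the prostaglandin pathway itself, the target of celecoxib, included the 2 cyclooxygenases. Ptgs2, which encodes COX2, was at 857 CPM (839 to 875) in CTRL, 457 (441 to 473) in COX2i and 1108 (1079 to 1137) in COX2i + 5-AZA. Ptgs1, which encodes COX1, was at 42.1, 21.8 and 45.9 CPM. Both were lowest in COX2i. Pla2g4a, which releases arachidonic acid, was at 98.5, 94.4 and 202 CPM. The receptor gene Ptger2, which raises cAMP on binding prostaglandin E2, stepped down at 62.9, 49.2 and 31.0 CPM. The list as a whole had medians of -0.01, -0.24 and -0.23 over 12 genes in the 3 comparisons. In COX2i over CTRL 0 of 12 were past 2-fold, beside 1.55% of all genes higher and 3.17% lower. In COX2i + 5-AZA over CTRL 1 was higher and 3 lower by 2-fold, beside 2.88% and 7.41% of all genes. In COX2i + 5-AZA over COX2i 3 were higher and 1 lower, beside 3.12% and 5.73%. The second median turned to 0.038 with at least 1 UMI and the last to 0.11 without possible doublets.

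Targets of cAMP and CREB, which lie downstream of prostaglandin E2 receptors, had a median of -0.37 in COX2i over CTRL. The median of all genes was 0.01. Of the 20 targets 13 had an interval below 0, beside 17.2% of all genes. None was 2-fold or more lower and 1 was 2-fold or more higher, beside 3.17% and 1.55% of all genes. Nr4a3, an immediate nuclear receptor gene, was at 213, 110 and 312 CPM and Nr4a2 at 401, 223 and 381. Areg (amphiregulin, a growth factor for epithelium) was at 51.1, 45.2 and 166 CPM. Il10, the suppressive cytokine, was at 25.1, 12.6 and 1.19 CPM from 259, 86 and 6 UMIs, with log2 ratios of -0.99 (-1.36 to -0.64) and -4.39 (-5.85 to -3.25) over CTRL. Il10 was the lowest of this list in COX2i + 5-AZA, while Nr4a3 and Areg were above CTRL in the same library. In TAM_C1q the Il10 ratio of COX2i + 5-AZA over CTRL was -0.40, and the difference between the classes was not tested. The Il10 ratio of COX2i over CTRL was -3.59 without possible doublets and -0.29 without cells with a G2/M UMI.

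Genes of arginine metabolism had median log2 ratios of -0.03 for COX2i over CTRL, 0.47 for COX2i + 5-AZA over CTRL and 0.52 for COX2i + 5-AZA over COX2i. Nos2, which makes nitric oxide from arginine, was at 20.4, 19.8 and 157 CPM, with a log2 ratio of -0.05 (-0.37 to 0.27) for COX2i over CTRL and 2.94 (2.72 to 3.17) for the combination, which was 3.82 in cells with more than 2000 detected genes. Ass1, which recycles citrulline to arginine, was at 55.9, 118 and 322 CPM, and the arginine transporter Slc7a2 at 15.6, 22.2 and 66.8. These 3 genes were highest in COX2i + 5-AZA. Of the 14 genes described, 3 were 2-fold or more higher in COX2i + 5-AZA than in CTRL and none lower. The shares of all genes were 2.88% and 7.41%. Nos2 was detected in 1.56%, 1.54% and 10.9% of thinned cells (2.34%, 2.83% and 15.6% before thinning), against 0.344% of the NK_cells of COX2i + 5-AZA.

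Matrix-degrading enzymes diverged within their family. Mmp12, the macrophage elastase, was at 134 CPM (127 to 141) in CTRL, 235 (224 to 247) in COX2i and 1982 (1943 to 2021) in COX2i + 5-AZA. Mmp13, a collagenase, was at 8.42, 16.5 and 204 CPM. Their log2 ratios of COX2i + 5-AZA over CTRL were 3.89 and 4.60, among the 10 largest of genes with at least 200 UMIs in the pair of libraries and 50 CPM in the higher. Mmp12 was detected in 7.33%, 10.6% and 53.8% of thinned cells (10.2%, 15.9% and 65.3% before thinning), against 8.93% of the NK_cells of COX2i + 5-AZA. Mmp9 was at 51.5, 13.6 and 14.3 CPM, and Ctsk (cathepsin K, a collagen-degrading protease of osteoclasts) at 37.7, 12.3 and 2.38. Timp1, an inhibitor of these enzymes, was at 95.2, 116 and 28.4 CPM. In the osteoclast-like list, 5 of 12 genes were 2-fold or more lower in COX2i than in CTRL and none higher. The shares of all genes were 3.17% and 1.55%. Ocstamp, a fusion gene of osteoclasts, was at 18, 12.1 and 62.8 CPM and ran against its list in COX2i + 5-AZA.

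Lipid handling also separated the libraries. Apoe, the lipoprotein of lipid-laden macrophages, was at 10264, 4338 and 2406 CPM, with log2 ratios over CTRL of -1.24 and -2.09. TAM_Spp1 ranked 7 of 9, 5 of 10 and 5 of 14 classes for Apoe, and TAM_C1q held 41133, 12859 and 14694 CPM. Apoe was detected in 35.5% and 32.3% of the thinned NK_cells of COX2i and COX2i + 5-AZA. TAM_C1q cells numbered 3199, 2023 and 1379, and their part in the Apoe values was not tested. Cd36, a scavenger receptor for oxidised lipids, was at 158, 59.7 and 17.1 CPM, with ratios of -1.40 and -3.21 (-3.54 to -2.89), the latter -3.98 without possible doublets. Plin2, a lipid droplet coat protein, was at 645, 273 and 496 CPM and Fabp5, a fatty acid carrier, at 208, 118 and 366. Lpl (lipoprotein lipase) ran the other way at 20.0, 55.5 and 85.0 CPM. The list had medians of -0.48, -0.37 and 0.24 in the 3 comparisons. In COX2i over CTRL 5 of 21 were lower and 1 higher by 2-fold, beside 3.17% and 1.55% of all genes.

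Genes of cholesterol synthesis and uptake were higher in both treated libraries. This list was compiled after values had been seen, and so are its members here. All 23 described were above 0 in COX2i over CTRL and in COX2i + 5-AZA over CTRL. Their medians were 0.60 and 0.96, beside 0.01 and -0.10 for all genes. Of them, 6 and 9 were 2-fold or more higher, beside 1.55% and 2.88% of all genes. Fdps (farnesyl diphosphate synthase) was at 57.8, 158 and 200 CPM and Sqle (squalene epoxidase) at 33.3, 88.6 and 103. The larger step for these genes was that from CTRL to COX2i.

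Hypoxia and glycolysis genes were mostly higher in the treated libraries, with 29 of 32 above 0 on the log2 scale in COX2i over CTRL and 28 of 32 in COX2i + 5-AZA over CTRL. Of the 32 genes, 25 had an interval above 0 and 2 below 0 in COX2i over CTRL, beside 20.2% and 17.2% of all genes. Only 1 was past 2-fold, beside 1.55% of all genes higher and 3.17% lower by 2-fold. The medians were 0.42, 0.54 and 0.14 in the 3 comparisons, beside 0.01, -0.10 and -0.11 for all genes. Slc2a1, the glucose transporter GLUT1, was at 315, 489 and 636 CPM, and Ndrg1, a classical hypoxia gene, at 127, 192 and 326. Vegfa, which belongs to both lists, had a log2 ratio of -0.70 (-0.76 to -0.65) in COX2i over CTRL.

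Genes of resident and C1q macrophages split. The complement genes C1qa and C1qb, chosen after their values were seen, were at 1948, 2397 and 2569 CPM and at 1832, 2518 and 2429, a little higher in the treated libraries. Folr2 was at 46.1, 32.6 and 14.5 CPM, Fcrls at 334, 504 and 86.2, Pf4 (a platelet-type chemokine) at 1085, 468 and 339, and F13a1 (coagulation factor XIII) at 1832, 826 and 604. The list had a median of -0.87 in COX2i + 5-AZA over CTRL. Of its 16 genes described there, 8 were 2-fold or more lower and 2 higher, beside 7.41% and 2.88% of all genes. Mgl2, a lectin receptor of interleukin-4-responsive macrophages, was 1 of the 2 at 46.1, 218 and 139 CPM. The monocyte-derived list had medians of -0.28, -0.49 and 0.36 in the 3 comparisons, the last of which turned to -0.075 without possible doublets. In it, Plac8 was at 196, 346 and 475 CPM while Chil3, a chitinase-like protein, was at 1449, 557 and 715. The Chil3 log2 ratio of COX2i + 5-AZA over CTRL was -1.02 in all cells and -0.17 in cells with more than 2000 detected genes.

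Cell cycle genes were by their medians higher in COX2i than in CTRL or COX2i + 5-AZA. The G2/M list had medians of 0.75 in COX2i over CTRL, -0.30 in COX2i + 5-AZA over CTRL and -0.91 in COX2i + 5-AZA over COX2i. In the first 2 of 19 were past 2-fold higher, beside 1.55% of all genes. In the last 8 of 19 were past 2-fold lower, beside 5.73% of all genes. Mki67 was at 22.2, 35.1 and 18.1 CPM and Top2a at 16.7, 29.4 and 12.7. The S phase list followed with medians of 0.50, -0.23 and -0.66. TAM_cycling cells, which carry these genes, numbered 1457, 3164 and 1320, and their part in these values was not tested.

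The remaining lists had medians near 0 in most comparisons. The macrophage identity list had -0.12, -0.23 and -0.03, the matrix and adhesion list -0.13, -0.36 and 0.02, and the list of tissue remodelling enzymes -0.30, 0.14 and 0.14. Among genes of iron, heme and oxidative stress (medians of -0.04, 0.46 and 0.39), Slc7a11, the cystine transporter, was at 79.9, 33.7 and 155 CPM and Gsr (glutathione reductase) at 284, 134 and 432, both lowest in COX2i. Among CC chemokines (0.10, -0.01 and -0.08), Ccl12, a ligand of Ccr2, was at 50.7, 168 and 151 CPM and Ccl24, a chemokine for eosinophils, at 51.6, 8.64 and 89.0. Ccl5, a T cell and macrophage chemokine, was at 10.7, 22.7 and 63.6 CPM, but its log2 ratio of COX2i + 5-AZA over COX2i turned from 1.49 to -0.62 without cells with a UMI of the neutrophil or NK and T cell lists. Among checkpoint genes (0.10, 0.04 and 0.22), Cd40 was at 13.4, 23.7 and 35.8 CPM and Il18bp, which binds IL-18, at 12.7, 24.0 and 48.3. Dissociation and heat shock genes, which can reflect handling, had medians of -0.14, 0.15 and 0.10, and Fos was at 2853, 1910 and 2454 CPM.

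The 10 largest positive log2 ratios in COX2i over CTRL by a rule that asked for 200 UMIs in the pair of libraries and 50 CPM in the higher were Cxcl10, Mgl2, Cfb, Ccl12, Gbp2, Ckb, Slc39a10, Gbp3, Scd2 and Lpl. Cfb, complement factor B, was at 18.6, 64.4 and 98.3 CPM. The 10 largest negative ones were Ppbp, Saa3, Fpr1, Ccl24, Mmp8, Cd38, S100a8, Hp, Cxcl3 and Cav1, a set that held several genes of neutrophils. Cd38, an NAD-consuming enzyme, was at 105, 20.2 and 96.0 CPM and Fpr1, a receptor for formyl peptides, at 51.4, 6.73 and 29.6. By the same rule, in COX2i + 5-AZA over COX2i the 10 largest positive ratios were those of Fam71f2, Mmp8, Lcn2, S100a8, Saa3, Mmp13, Ccl24, Inhba, Mmp12 and Ppbp.

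S100a8, a subunit of the neutrophil protein calprotectin, was at 94.6, 19.9 and 260 CPM in TAM_Spp1 and at 9539 CPM in the CTRL cells of the class Neutro. Mmp8, the neutrophil collagenase, was at 64.2, 11.7 and 178 CPM, but its log2 ratio of COX2i + 5-AZA over CTRL turned from 1.47 to -0.43 without possible doublets, which are left out by UMIs of Mmp8 among others. Lcn2 was at 24.3, 3.95 and 54.8 and Saa3, an acute phase protein, at 64.1, 7.61 and 96.0. Neutro cells numbered 65, 5 and 196 in these libraries, and their part in the values was not tested. S100a8 and Mmp8 belong to the 9 neutrophil genes and make up most of their sum in COX2i + 5-AZA, so its change is no separate measure for these genes.

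By the same rule, the 10 largest negative ratios in COX2i + 5-AZA over CTRL were those of Mgp, Hmga2, Cd36, Cav1, Col6a3, Angptl2, Apoe, Gja1, Tpcn1 and Fcrls. Mgp (matrix Gla protein) was at 88.1, 62.8 and 7.35 CPM in TAM_Spp1, Hmga2 at 103, 40.4 and 10.7 and Gja1 (a connexin of gap junctions) at 55.9, 54.9 and 13.7. The class Myofibrobl of CTRL held Mgp at 4539 CPM and Hmga2 at 1233, and its cells numbered 554, 913 and 160, and the part of these cells in the lower values was not tested. Between the treated libraries, Mgp, Fcrls, Bgn, Timp1, Asns, Gja1, Pltp, Col1a2, Cd36 and Angptl2 had the 10 largest negative ratios. The 10 largest positive ratios in COX2i + 5-AZA over CTRL were those of Cxcl10, Mmp13, Cxcl9, Mmp12, Socs1, Fam71f2, Slamf8, Nos2, Gbp4 and Gbp5, and Slamf8, a surface receptor of activated macrophages, was at 5.80, 26.6 and 50.3 CPM.

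The same comparisons in TAM_C1q, which share its libraries, gave like values for some genes and other values for others. Cxcl10 had log2 ratios of 2.17 and 5.13 over CTRL in TAM_C1q, beside 2.76 and 4.69 in TAM_Spp1, and Mmp12 had 1.71 and 4.92 beside 0.81 and 3.89. Inhba, a subunit of activin A, was at 40.1, 19.3 and 193 CPM in TAM_Spp1, a ratio of 2.27 for COX2i + 5-AZA over CTRL, where TAM_C1q had -0.30. Cd36 had a ratio of -3.21 in TAM_Spp1 and -1.13 in TAM_C1q for that comparison. None of these differences between classes was tested.

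**Figure D5:**
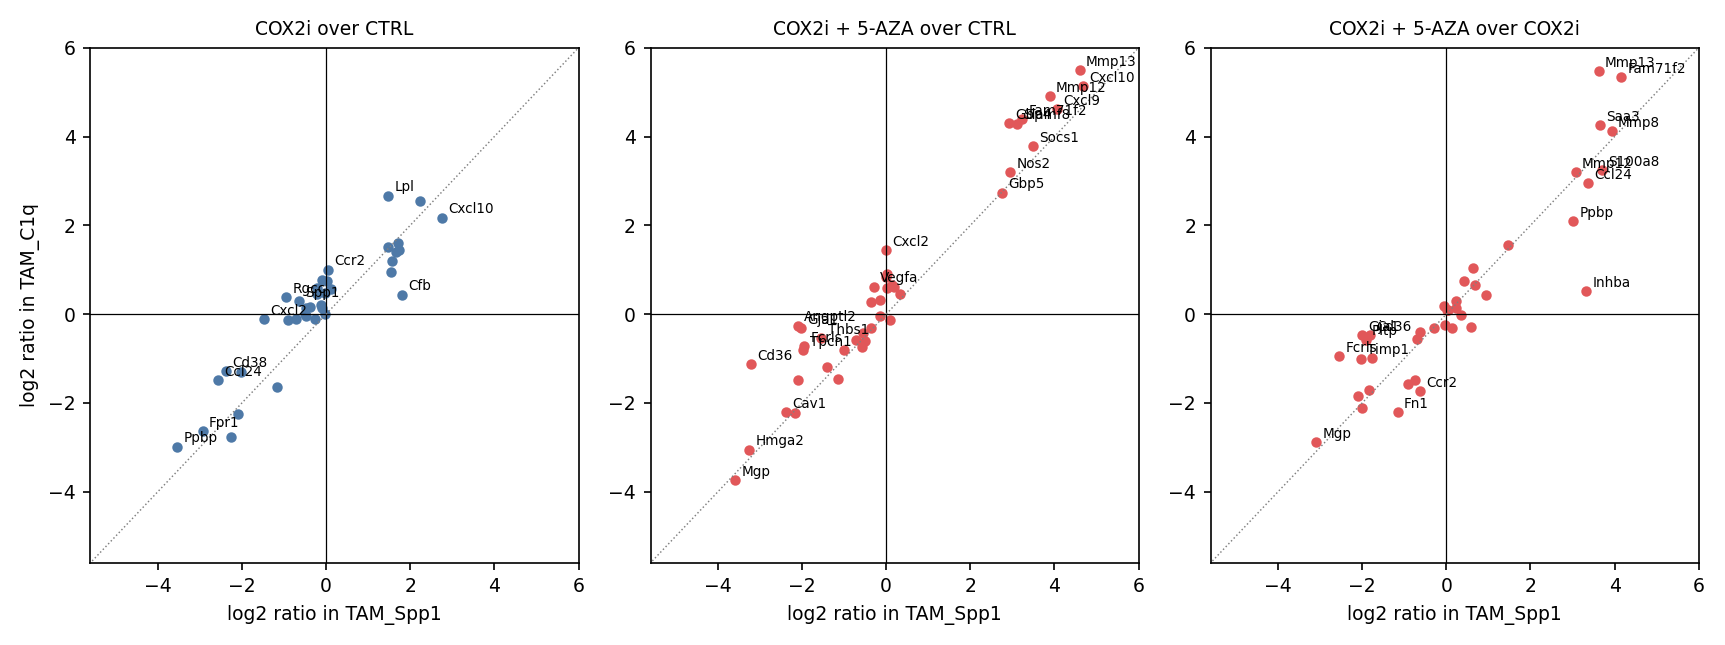
Log2 ratio of CPM in TAM_C1q against that in TAM_Spp1 for genes named by the rules, in 3 comparisons, where the dotted line marks equal ratios and selected genes are labelled. Cxcl10 lies near the line in COX2i + 5-AZA over CTRL (4.69 and 5.13), while Inhba (3.32 in TAM_Spp1, 0.52 in TAM_C1q) and Fcrls (-2.55 and -0.94) in COX2i + 5-AZA over COX2i lie away from it.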

How the data were processed

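Single-cell counts of 4 libraries, each from 3 pooled tumours, were analysed by library and class. According to the methods and the submitters' processing notes, the deposited counts (UMIs of each gene in each cell, not normalised) were made by the authors with Cell Ranger 7.1.0 and a mouse probe set for mm10. They kept cells by detected genes and by mitochondrial and ribosomal share, removed ribosomal and mitochondrial genes, and named Harmony-integrated clusters from markers. A removal of doublets is not given in the sources used here. The table held 12584 genes and 34447 cells. In it, 1201 cells had no more detected genes than the lower limit that the methods state, and these were kept.

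UMIs of TAM_Spp1 cells were summed per library (depths are in the opening) and given as CPM with exact Poisson intervals. Ratios carry exact conditional intervals and shares Clopper-Pearson intervals, all at 95% and for counting error only. A gene was described with 20 UMIs in both libraries together and counted as past 2-fold at 2-fold or more. Genes were named as markers or study leading genes, as the 10 largest ratios each way with at least 200 UMIs and 50 CPM, as the 4 largest members of each list, or by the ratio to TAM_C1q in all 3 libraries. The members and lists were chosen with earlier results of these data known. Some genes are not reported here. No model was fitted, and the scripts were tested on simulated data. Alternatives changed the denominator, filters, scaling, depth and cells. Python 3.11.15, numpy 2.4.6, scipy 1.17.1, pandas 2.3.3 and matplotlib 3.10.9 were used, and promoters came from RefSeq (GRCm38.p6).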

Additional observations from a re-analysis of the deposited data

Results flagged for a closer look

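For some named genes the log2 ratio was below 0 in TAM_Spp1 and above 0 in TAM_C1q of the same libraries. None of these differences between classes was tested. In COX2i over CTRL they were Angptl2 (-0.33 in TAM_Spp1 and 0.72 in TAM_C1q), Cxcl14 (-1.09 and 0.22) and Nr4a2 (-0.85 and 0.16). In COX2i + 5-AZA over CTRL they were Ccl7 (-0.75 and 1.23) and Chil3 (-1.02 and 0.69).

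In COX2i + 5-AZA over COX2i the median of all genes in TAM_Spp1 was -0.11, and MHC class II genes lay near it, with Cd74 at -0.044 in TAM_Spp1 and 1.20 in TAM_C1q, H2-Ab1 at -0.10 and 1.08 and H2-Eb1 at -0.11 and 0.95. The others were Apoe (-0.85 and 0.19), Ccl7 (-1.33 and 0.17), Mgl2 (-0.65 and 2.20), Ms4a7 (-1.29 and 0.34), Pf4 (-0.47 and 1.05) and Rtp4 (-0.46 and 0.74).

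The 10 TAM_Spp1 cells of IRF3/7 were left out of the comparisons, and their 30117 UMIs held interferon genes above the CTRL level. Irf7 was at 1527 CPM in IRF3/7 and 69.4 in CTRL, Isg15 at 498 and 76.4, Cxcl10 at 99.6 and 15.3, Ifit3 at 66.4 and 7.35 and Rsad2 at 133 and 28.1. These rest on 46, 15, 3, 2 and 4 UMIs, with no replicate. They were named because their counting intervals lay above the CTRL level. Irf3, at 99.6 CPM against 43.6 in CTRL, had a log2 interval of -1.09 to 2.75. Irf7 and Irf3 are also forced in the cancer cells of this library. Infl_Mono, the class of inflammatory monocytes, made up 68.5% of the cells of IRF3/7 and 1.04% of those of CTRL. The part of these cells in the values was not tested. Of the markers and leading genes of the class, Spp1 was at 631 CPM against 12066 in CTRL and Fn1 at 1361 against 11501. Thbs1 was at 7737 against 12065 and Cxcl2 at 1029 against 1410.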

How the results depend on the processing

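No paired analysis was possible because each group had 1 library, and no replicate could be left out. The log2 share ratios were -0.60 for COX2i, -0.59 for COX2i + 5-AZA and -3.78 for IRF3/7 over CTRL with macrophages as the denominator, and -0.64 and -1.02 for the first 2 in cells with more than 2000 genes. COX2i + 5-AZA over COX2i turned to 0.0078 with macrophages, and was -0.98 without Myofibrobl and -0.38 in cells with more than 2000 genes. Counts past 2-fold with at least 100 UMIs were 73 higher and 121 lower in COX2i over CTRL, 194 and 254 in COX2i + 5-AZA over CTRL, and 187 and 147 in COX2i + 5-AZA over COX2i. With at least 1 UMI they were 588 and 545 for the first, where the balance turned, 917 higher for the second, and 837 and 1096 for the last. Without possible doublets, which kept 650, 402 and 165 of 2347, 1412 and 857 cells of CTRL, COX2i and COX2i + 5-AZA, the lower counts were 213, 441 and 344, and without cells with a G2/M UMI that of COX2i + 5-AZA over COX2i was 368.

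Some values turned in direction. The prostaglandin list came to 0.038 with 1 UMI for COX2i + 5-AZA over CTRL and to 0.11 without doublets for COX2i + 5-AZA over COX2i. The G2/M list came to 0.0086 when thinned, for COX2i + 5-AZA over CTRL. The monocyte-derived list in COX2i + 5-AZA over COX2i went from 0.36 to -0.075 without doublets and -0.13 without cells with a neutrophil or NK and T cell UMI, where Ccl5 came to -0.62. Mmp8 and Pecam1 in COX2i + 5-AZA over CTRL came to -0.43 and -0.24 without doublets. Both belong to the lists by which those cells were left out. The cause was not tested. Recomputed over all settings, the 78 list medians gave 777 values, of which 50 had the other sign, 45 of them for medians within 0.2 of 0. For named genes 2057 recomputed ratios stayed within the counting interval, 935 moved out of it and 3 reversed. The settings on neutrophil, NK and T cell and G2/M UMIs were chosen after the data were seen. Depth limits genes with few UMIs, such as Il10 with 6 in COX2i + 5-AZA.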
